A study of Rattus norvegicus with 12 samples.

Results

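The genes described here are 9 metalloproteinase genes of the ADAMTS and ADAM families, namely Adamts1, Adamts2, Adamts4, Adamts5, Adamts9, Adamts12, Adam9, Adam10 and Adam17, measured by poly(A) RNA-seq in cultured fibroblast-like synoviocytes (FLS), the lining fibroblasts of the joint. They were chosen by name, and for each name the gene record with the highest mean over the 12 libraries was taken, which gave 9 of the 22442 records in the table. The FLS came from male Sprague Dawley rats with adjuvant arthritis (AA) raised by complete Freund's adjuvant, and the study asked what the bile acid taurochenodeoxycholic acid (TCDCA) changes in their transcriptome. FCA was the control group, AA FLS in DMEM alone, and AT01, AT1 and AT10 were AA FLS given TCDCA at 0.1, 1 and 10 µM, each group with 3 libraries and 12 h of incubation. All groups carried the arthritis, and a group from healthy rats was not analysed here. The cells were used at passage 3, so they stand for expanded fibroblasts and not for the whole synovium. Whether the 3 libraries of a group came from separate rats or cultures is not given in the sources used here, where the replicate numbers stand for repeats of an unstated kind, so the p-values measure only the spread between these libraries, which may be technical.

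ADAMTS enzymes are secreted zinc proteases that bind the extracellular matrix through thrombospondin repeats. Several of them, the aggrecanases, cut the large proteoglycans aggrecan and versican, and Adamts4 and Adamts5 are best known for the loss of aggrecan from arthritic cartilage. ADAM enzymes are membrane-anchored relatives, and Adam9, Adam10 and Adam17 are sheddases that release the outer parts of membrane proteins, among them TNF, TNF receptors, Notch and EGF receptor ligands. Members of both families are made as inactive proproteins that furin-like convertases cut, and TIMPs inhibit some of them. The mRNA level is thus only 1 of the steps that set their activity.

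The values are FPKM, fragments scaled to the length of the transcript and to the size of the library, so levels of different genes can be set side by side. The summed FPKM of a library lay between 284210 and 309696, and between 11471 and 11679 records reached 1 FPKM in each. The files give no read counts, so the depth behind a single value is unknown and counting error cannot be stated. Of 12 fibroblast markers 10 were in the table, and all 10 passed the filter on low values, with a summed level of 8242 to 9011 FPKM in FCA and 6942 to 8783 FPKM with TCDCA. Of 12 macrophage markers 6 were in the table, with a summed level of 6.49 to 21.9 FPKM in FCA and 5.71 to 21.4 FPKM with TCDCA, of which Cd14 reached up to 18.8 FPKM and Cd68 ranged from 1.66 to 2.91 FPKM, while the other 4 stayed under 1 FPKM and the defining marker Adgre1 at 0.03 FPKM or less. Of 10 endothelial markers 8 were in the table, with a sum of 19.2 to 22.2 FPKM in FCA and 16.8 to 22.1 FPKM with TCDCA. Nearly all of it was Egfl7 (16.7 to 22.1 FPKM), while the other 7 stayed under 1 FPKM, with Tie1 at 0 and Cdh5 at 0.01 FPKM or less. Of 10 chondrocyte markers 9 were in the table, with a sum of 7.37 to 9.02 FPKM in FCA and 3.92 to 8.37 FPKM with TCDCA. Acan, Sox9 and Col9a2 passed 1 FPKM in at least 1 library, and the cartilage collagen Col2a1 stayed at 0.01 FPKM or less. These markers are named after their values were seen, and their part in the results was not tested.

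The 2 promoters below are shown because Adamts1 was the most abundant of the 9 genes and was low in 3 of the 12 libraries, and because Adamts12 was the gene whose TCDCA libraries all lay above FCA. Each is the 250 bases before the start of the gene, on the gene's strand, from RefSeq on the build GRCr8. The build behind the deposited values is not given in the sources used here, and no coordinate of theirs is used. Capitals mark motif matches, which are TGACG and TATAAA in Adamts1, while Adamts12 held no match.
Adamts1, chr11:38427385-38427634, minus strand: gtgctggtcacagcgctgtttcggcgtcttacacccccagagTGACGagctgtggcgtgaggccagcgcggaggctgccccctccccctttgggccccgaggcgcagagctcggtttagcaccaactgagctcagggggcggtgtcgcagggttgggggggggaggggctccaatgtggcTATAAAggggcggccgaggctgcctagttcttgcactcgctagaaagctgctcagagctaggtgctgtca
Adamts12, chr2:61759737-61759986, plus strand: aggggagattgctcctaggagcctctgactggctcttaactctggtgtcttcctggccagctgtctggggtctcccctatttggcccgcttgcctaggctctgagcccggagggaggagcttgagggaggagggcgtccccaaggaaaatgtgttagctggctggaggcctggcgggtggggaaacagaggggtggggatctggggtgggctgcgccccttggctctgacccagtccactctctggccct
The motifs searched in this window were AGAACA (part of a glucocorticoid receptor site), the CRE of the cAMP response TGACGTCA, its core TGACG, the AP-1 motif TGANTCA, all on both strands, and TATAAA on the gene's strand. A full CRE also counts as a core. Of 33469 RefSeq promoters, AGAACA was in 17.5%, the full CRE in 1.59%, the CRE core in 18.2%, the AP-1 motif in 6.34% and TATAAA in 8.06%. A promoter was given for 7 of the 9 genes. Among those 7, the CRE core was in Adamts1, where it began 208 bases before the start, and in Adam10, TATAAA was in Adamts1 alone, 70 bases before the start, and the other 3 motifs matched in 0. A match is a description of letters and not of binding.

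In FCA, the mean levels of the 9 genes reached from 1.24 to 146 FPKM. Adamts1, a proteoglycanase that is also induced by inflammatory and hormonal signals, was by far the most abundant, at 146 ± 64.9 FPKM (SD, n = 3), a percentile of 97.2 among the 11611 records tested. Adam17 followed at 22.3 ± 7.34 FPKM, then Adam9 at 13.5 ± 0.81 FPKM, Adamts5 at 12.5 ± 1.00 FPKM and Adam10 at 10.0 ± 1.76 FPKM. The lower end held Adamts2 at 6.74 ± 0.41 FPKM, Adamts12 at 3.57 ± 0.26 FPKM, Adamts4 at 3.10 ± 0.35 FPKM and Adamts9 at 1.24 ± 0.17 FPKM. In this order, the FCA ranges of neighbours overlapped for Adam9 with Adamts5 and for Adamts12 with Adamts4, and did not overlap for the other 6 neighbouring pairs. Adam10 was ranked by the record taken alone. Another record of its name, MSTRG.17158, read 3.22, 5.18 and 3.94 FPKM in FCA, so the place of Adam10 below Adamts5 and Adam9 depends on the choice of record. Of the aggrecanases of arthritic cartilage, Adamts5 was thus the more abundant in these cells, and its lowest FCA library (11.5 FPKM) lay above the highest Adamts4 value (3.46 FPKM).

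**Figure D1:**
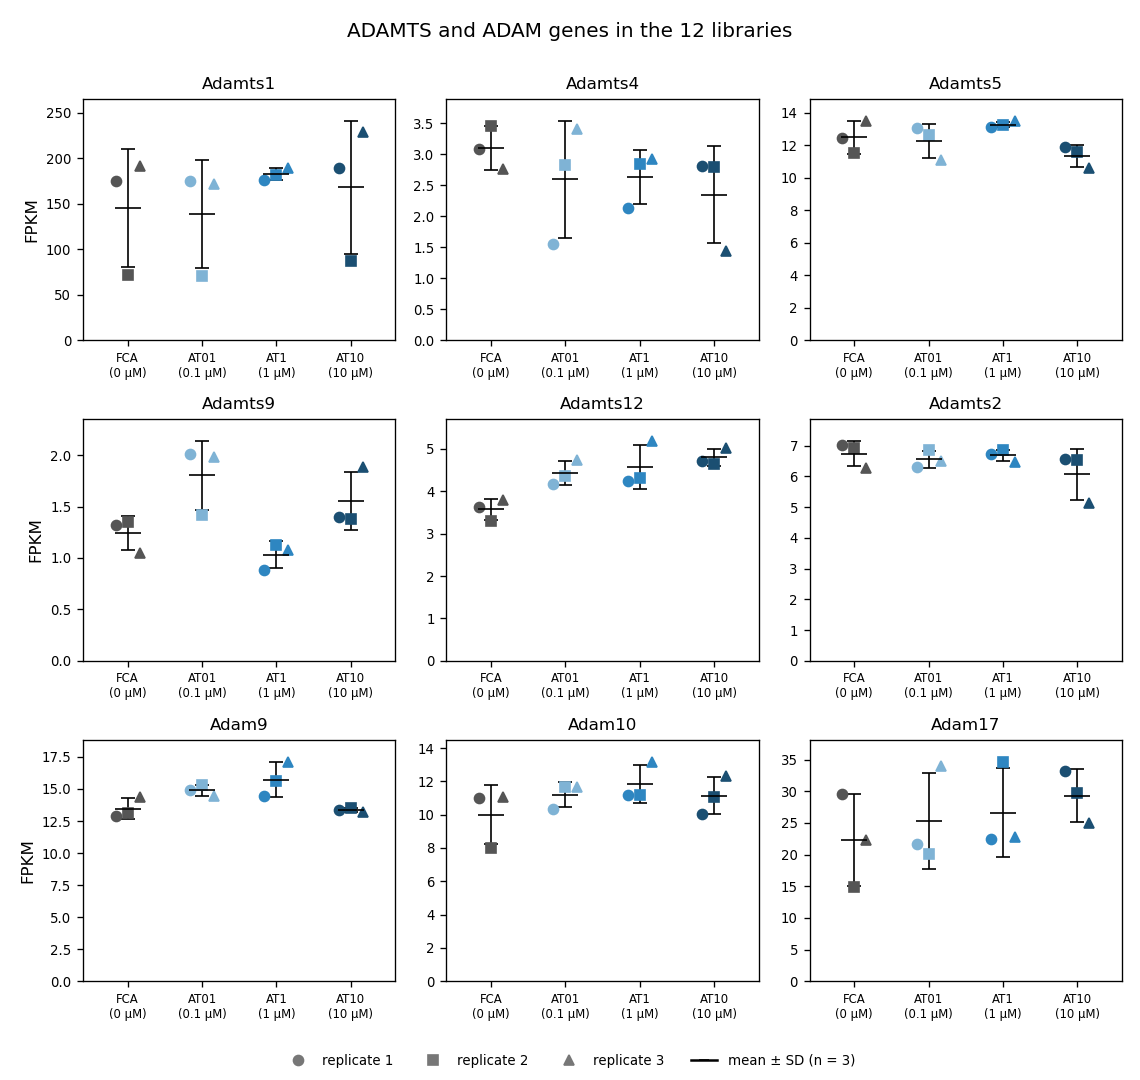
FPKM of the 9 genes (y axis of each panel, from 0) in the 12 libraries by group (x axis, with the TCDCA dose); points are libraries, with the shape giving the replicate number, and bars are the mean ± SD of 3 libraries. Adamts12 lies above FCA in all 9 TCDCA libraries (4.17 to 5.18 against 3.29 to 3.79 FPKM), and Adamts1 is low in replicate 2 of FCA, AT01 and AT10 (70.7 to 87.2 FPKM).

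None of the 9 genes was called in any comparison. The study's criterion is at least a 2-fold change at an unadjusted p under 0.05. It was applied here to limma fits of log2(FPKM + 1) and not to the study's own test. It took in 0 of 9 at each dose, where it took in 0.706% of all records tested in AT10, 0.620% in AT1 and, for AT01, 0.758%. The adjusted p of limma under 0.05 also took in 0 of 9 at each dose, beside 0.172% of all records in AT10, 0.0947% in AT1 and 0.0947% in AT01. An unadjusted limma p under 0.05 was reached by 1 gene in AT10 (11.9% of all records), 1 in AT1 (11.0%) and 2 in AT01 (6.60%), all of them higher with TCDCA, the direction of 7.54%, 5.56% and 2.57% of all records. At 1 gene of 9, the share is near that of all records in AT10 and AT1. The 2 genes of AT01 became 0 with the replicate number as a block, and 0 or 1 with any 1 library left out. The 3 TCDCA libraries lay above all 3 FCA libraries for 2 genes in AT10 (Adamts9 and Adamts12), 3 in AT1 (Adamts12, Adam9 and Adam10) and 3 in AT01 (Adamts9, Adamts12 and Adam9), and below them for 0, where 10.7%, 9.87% and 5.97% of all records lay above. The 3 comparisons share the FCA libraries, and changes below are on the log2(FPKM + 1) scale, which understates the change of genes of low level.

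Among the proteoglycanases, Adamts1 held the highest levels and the least certain change. Its FCA libraries read 175, 71.3 and 191 FPKM, those of AT01 175, 70.7 and 172 FPKM, those of AT1 176, 182 and 190 FPKM and those of AT10 189, 87.2 and 229 FPKM. Replicate 2 was low in FCA, AT01 and AT10 and not in AT1, at 0.390, 0.408, 0.418 and 0.994 times the mean of replicates 1 and 3 of the same group. The low and the high libraries were 0.97 apart on the log2 scale, and the spread within groups, 0.65, stood at a percentile of 93.1 of all records tested. The log2 change against FCA was 0.22 in AT10 (95% interval -1.07 to 1.50, limma adjusted p = 0.874), 0.45 in AT1 (-0.50 to 1.40, adjusted p = 0.646) and, for AT01, -0.05 (-1.34 to 1.23, adjusted p = 0.989). The direction rested on single libraries. Without FCA replicate 2 the change was -0.23 in AT10, -0.0013 in AT1 and -0.24 over the 9 TCDCA libraries, and without AT10 replicate 3 that of AT10 was -0.057. The change of AT01 was 0.14 without FCA replicate 1, 0.20 without FCA replicate 3 and 0.37 without AT01 replicate 2. A change of either sign and of more than 2-fold is inside the intervals of AT10 and AT01. Adamts5 lies beside Adamts1 on chromosome 11 with 0 protein-coding genes between them in RefSeq, and its replicate 2 was at 0.888, 1.05, 0.995 and 1.03 times the mean of the others in FCA, AT01, AT1 and AT10.

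Adamts5 and Adamts4, the aggrecanases of cartilage, stayed within the spread of FCA or below it. Adamts5 read 12.4, 11.5 and 13.5 FPKM in FCA, 13.1, 12.7 and 11.1 FPKM in AT01, 13.1, 13.2 and 13.5 FPKM in AT1 and 11.9, 11.6 and 10.6 FPKM in AT10. The intervals were narrow for this gene, and the log2 change of AT10 was -0.13 (95% interval -0.33 to 0.08, limma adjusted p = 0.573), which holds a small decrease, no change and a small increase. Adamts4 read 3.09, 3.46 and 2.76 FPKM in FCA, 1.56, 2.83 and 3.40 FPKM in AT01, 2.13, 2.84 and 2.93 FPKM in AT1 and 2.81, 2.79 and 1.44 FPKM in AT10. Each dose had 1 library below all FCA values, and the mean of Adamts4 was lower than in FCA at each dose without passing the test, with a log2 change of -0.32 in AT10 (95% interval -0.82 to 0.17, limma adjusted p = 0.553), -0.18 in AT1 (adjusted p = 0.586) and, for AT01, -0.22 (adjusted p = 0.829). Without the low library of each dose the change was -0.11 in AT10 (without replicate 3), -0.075 in AT1 (without replicate 1) and, for AT01, 0.0041 (without replicate 1).

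Adamts9, which also cuts aggrecan and versican, was the least abundant, and its name is carried by 2 gene records. The record taken, MSTRG.12829, holds only transcripts assembled from these reads, and read 1.32, 1.35 and 1.05 FPKM in FCA, 2.01, 1.42 and 1.98 FPKM in AT01, 0.88, 1.13 and 1.08 FPKM in AT1 and 1.40, 1.38 and 1.88 FPKM in AT10. AT01 and AT10 lay above all FCA libraries and AT1 did not. The log2 change was 0.32 in AT01 (95% interval 0.0020 to 0.64, unadjusted p = 0.049, limma adjusted p = 0.720), -0.14 in AT1 (adjusted p = 0.592) and 0.19 in AT10 (adjusted p = 0.560). The other record, MSTRG.12828, holds the Ensembl transcript and read 1.10, 1.08 and 0.90 FPKM in FCA, 1.31, 1.44 and 1.37 FPKM in AT01, 1.74, 1.30 and 1.52 FPKM in AT1 and 1.09, 1.26 and 0.79 FPKM in AT10. Here AT1 was higher, by 0.31 (95% interval 0.06 to 0.56, limma adjusted p = 0.428), and the change of AT10 was 0.0089, so the records went in opposite directions in AT1. In AT01 both records lay above all FCA libraries, by 0.32 and 0.23, and neither change passed the adjustment. Values this close to 1 FPKM under a split name do not give a common direction over the doses for Adamts9 as a gene.

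**Figure D2:**
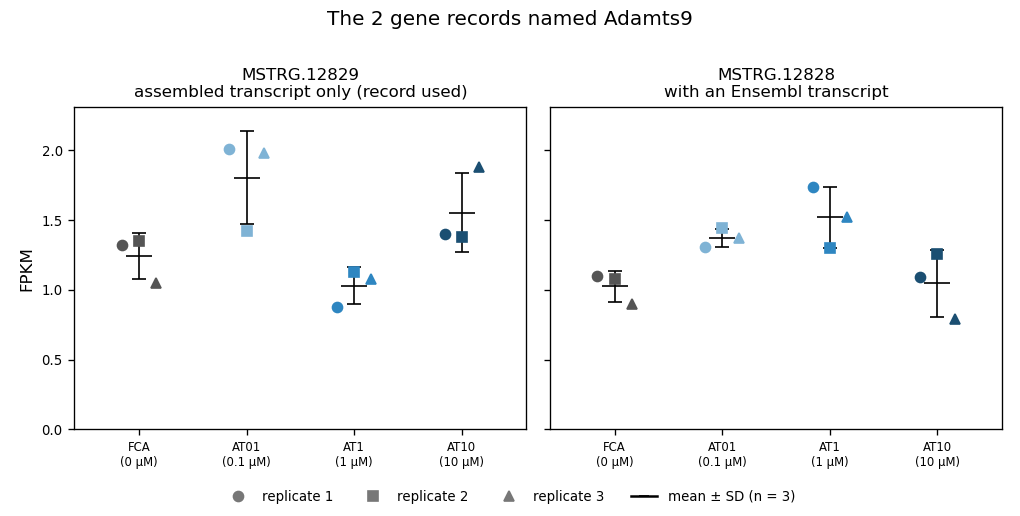
FPKM (y axis, from 0) of the 2 records named Adamts9 in the 12 libraries by group (x axis, with the TCDCA dose); points are libraries, and bars are the mean ± SD of 3 libraries. In AT1 the record used (left) averages 1.03 FPKM against 1.24 FPKM in FCA, and the other record (right) 1.52 FPKM against 1.03 FPKM.

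Adamts12, which degrades cartilage oligomeric matrix protein (COMP), was the gene that differed most steadily from FCA. It read 3.63, 3.29 and 3.79 FPKM in FCA, 4.17, 4.37 and 4.74 FPKM in AT01, 4.24, 4.32 and 5.18 FPKM in AT1 and 4.71, 4.65 and 5.03 FPKM in AT10. All 9 TCDCA libraries were above all 3 FCA libraries, which was so for 0.956% of all records tested and for 1 of the 9 genes. Over the 9 TCDCA libraries the log2 change was 0.29 ± 0.07 (SE), or 1.22-fold for FPKM + 1 (95% interval 1.11 to 1.35). The mean was 4.60 FPKM with TCDCA and 3.57 FPKM in FCA. The unadjusted p was 0.0009 and the limma adjusted p = 0.241 over all records, so this difference did not pass. The exact two-sided permutation test gave p = 0.00909, the smallest it can give for 9 libraries against 3. Groups that do not overlap always give this value, so it adds nothing to the lack of overlap. In this comparison the adjusted p under 0.05 took in 0.0258% of all records, the study's criterion 0.491%, and an unadjusted p under 0.05 with a higher level 5.86%. By dose, the log2 change was 0.34 in AT10 (95% interval 0.15 to 0.53, limma adjusted p = 0.196), 0.29 in AT1 (0.05 to 0.52, adjusted p = 0.428) and, for AT01, 0.25 (0.03 to 0.46, adjusted p = 0.720). The means of the doses stood in the order of the dose, and the slope was 0.11 per step (95% interval 0.05 to 0.17, limma adjusted p = 0.382). By the slope, 11.2% of all records had an unadjusted p under 0.05 and 0 an adjusted one, and the intervals of the doses overlap widely and by limma no dose differed from another by the test.

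Adamts2, which trims the N-propeptide of fibrillar procollagens, varied little within groups, with a spread at a percentile of 19.9 of all records tested. It read 7.03, 6.92 and 6.28 FPKM in FCA, 6.31, 6.86 and 6.50 FPKM in AT01, 6.73, 6.85 and 6.48 FPKM in AT1 and 6.57, 6.53 and 5.12 FPKM in AT10. Apart from AT10 replicate 3, every TCDCA library lay inside the FCA range. The log2 change was -0.14 in AT10 (95% interval -0.41 to 0.13, limma adjusted p = 0.632), -0.0095 in AT1 (adjusted p = 0.966) and, for AT01, -0.03 (adjusted p = 0.932), and without AT10 replicate 3 that of AT10 was -0.04. The same library was also the lowest of the 12 for Adamts4 (1.44 FPKM), Adamts5 (10.6 FPKM) and the summed smooth muscle markers (185 FPKM). That sum, over the 8 of 10 smooth muscle markers in the table, of which 0 were at 0 in all 12 libraries, lay between 350 and 455 FPKM in FCA and between 185 and 346 FPKM with TCDCA, without overlap, and the part of this in the values of the 9 genes was not tested. Most of the sum was Acta2, at 263 to 370 FPKM in FCA and 125 to 256 FPKM with TCDCA. Acta2 and Smtn (36.7 to 38.3 against 22.4 to 36.1 FPKM), both named after their values were seen, were the 2 of 8 markers whose groups did not overlap, and the other 6 overlapped. Of all records tested, 1.90% lay below FCA in all 9 TCDCA libraries. In bulk RNA, fewer cells of a type and less RNA per cell cannot be told apart.

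None of the 3 sheddases passed the test. Adam9, which cuts several growth factors and adhesion proteins, read 12.9, 13.2 and 14.4 FPKM in FCA, 14.9, 15.3 and 14.5 FPKM in AT01, 14.5, 15.6 and 17.1 FPKM in AT1 and 13.3, 13.5 and 13.2 FPKM in AT10. AT01 and AT1 lay above all FCA libraries and AT10 inside their range. The log2 change was 0.14 in AT01 (95% interval -0.04 to 0.32, limma adjusted p = 0.762), 0.21 in AT1 (-0.00079 to 0.42, adjusted p = 0.453) and -0.011 in AT10 (-0.17 to 0.15, adjusted p = 0.955).

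Adam10, the main sheddase of Notch receptors and N-cadherin, read 11.0, 7.98 and 11.0 FPKM in FCA, 10.3, 11.6 and 11.7 FPKM in AT01, 11.2, 11.2 and 13.2 FPKM in AT1 and 10.1, 11.0 and 12.3 FPKM in AT10. FCA replicate 2 was the lowest of the 12 libraries, and the other 11 lay between 10.1 and 13.2 FPKM. The log2 change was 0.15 in AT10 (95% interval -0.21 to 0.51, limma adjusted p = 0.681), 0.23 in AT1 (-0.12 to 0.59, adjusted p = 0.544) and, for AT01, 0.16 (-0.18 to 0.51, adjusted p = 0.825). Without FCA replicate 2 it was 0.011 in AT10, 0.093 in AT1 and, for AT01, 0.020. Another record of the name, MSTRG.17158, was listed at 0 in 4 libraries (AT10 replicate 2, AT1 replicate 1, AT01 replicates 1 and 3). The other 8 lay between 3.22 and 8.02 FPKM, and the FCA libraries, at 3.22, 5.18 and 3.94 FPKM, were all among them. The log2 change of this record was -0.30 in AT10 (limma adjusted p = 0.898) and -0.61 in AT1 (adjusted p = 0.742). For AT01 it was -1.55 (95% interval -3.21 to 0.12, limma adjusted p = 0.720). These signs were opposite to those of the record used, and none of these changes passed the test.

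Adam17, the TNF-converting enzyme, was the most variable sheddase. It read 29.6, 14.9 and 22.3 FPKM in FCA, 21.7, 20.1 and 34.0 FPKM in AT01, 22.4, 34.7 and 22.8 FPKM in AT1 and 33.3, 29.7 and 24.9 FPKM in AT10. Each group spanned several FPKM, and the groups overlapped at each dose. The log2 change was 0.42 in AT10 (95% interval -0.21 to 1.05, limma adjusted p = 0.541), 0.27 in AT1 (-0.45 to 0.99, adjusted p = 0.710) and, for AT01, 0.18 (-0.56 to 0.93, adjusted p = 0.893). A 2-fold increase is inside the interval of AT10. Without FCA replicate 2 the change was 0.17 in AT10, 0.020 in AT1 and, for AT01, -0.064. Without FCA replicate 1 that of AT10 was 0.64 (unadjusted p = 0.0321, limma adjusted p = 0.503), without AT1 replicate 2 that of AT1 was 0.07, and without AT01 replicate 3 that of AT01 was -0.041. Its substrate Tnf, named after its values were seen, was between 0 and 0.03 FPKM in the 12 libraries.

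**Figure D3:**
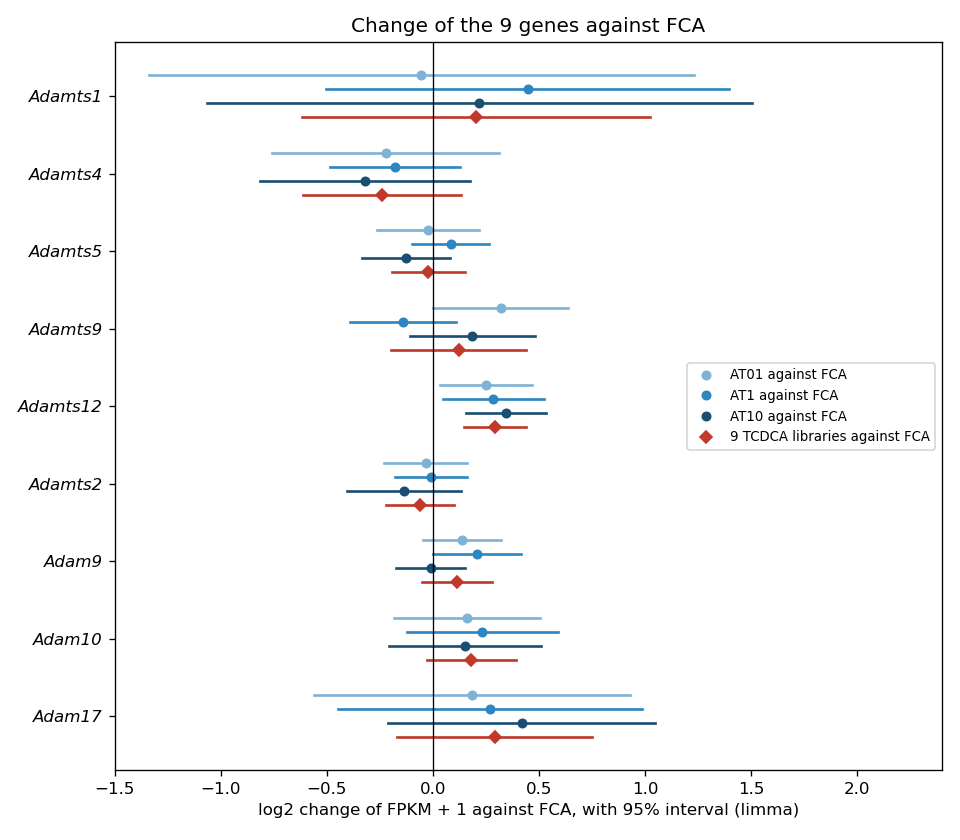
Change of the 9 genes against FCA (x axis, log2 of FPKM + 1, limma) with 95% intervals, for AT01, AT1, AT10 and the 9 TCDCA libraries together. The intervals of Adamts12 lie above 0 and reach from 0.03 to 0.53, around changes of 0.25 to 0.34 by dose. Those of Adamts1 reach from -1.34 to 1.50, and 0 of the 9 genes had an adjusted p under 0.05 in any comparison.

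Between doses, the same criteria took in 0 of 9 genes in each of the 3 comparisons. The study's criterion took in 0.594% of all records for AT10 against AT1, 0.672% for AT10 against AT01 and 0.568% for AT1 against AT01, and the adjusted p took in 0.258% in the first, 0.0689% in the second and 0.129% in the third. An unadjusted p under 0.05 was reached by 3 genes for AT10 against AT1 (6.46% of all records), 0 for AT10 against AT01 (4.97%) and 1 for AT1 against AT01 (3.43%). The 3 genes were Adamts5, lower in AT10 than in AT1 by a log2 change of -0.21 (95% interval -0.37 to -0.05, limma adjusted p = 0.739), Adam9, lower with -0.22 (-0.41 to -0.03, adjusted p = 0.748), and Adamts9, higher with 0.33 (0.04 to 0.61, adjusted p = 0.748), for which the other record of the name gave -0.30. The gene of AT1 against AT01 was Adamts9, with -0.46 (-0.77 to -0.15, adjusted p = 1.00), and for it the other record of the name gave 0.08. These middle-dose differences did not pass the adjustment, and the groups did not overlap for any of the 3 genes in AT10 against AT1, as for 13.9% of all records.

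The genes that act with the 9 proteases were followed in 8 lists, taken whole, of which 57 genes passed the filter. By either criterion 0 of 57 were called in any of the 7 comparisons of groups. An unadjusted limma p under 0.05 was reached by 6 of 57 in AT10 (10.5%, 3 higher and 3 lower), 5 in AT1 (8.77%, 2 higher and 3 lower) and 8 in AT01 (14.0%, 2 higher and 6 lower), beside the 11.9%, 11.0% and 6.60% of all records given above. Over the 9 TCDCA libraries 5 of 57 were higher and 6 lower, in all 19.3% of the list genes, where 5.86% of all records were higher and 6.15% lower.

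Furin, the convertase that activates proADAMTS and proADAM enzymes, averaged 123 ± 7.55 FPKM in FCA and 111 ± 7.22 FPKM in the 9 TCDCA libraries, with a log2 change of -0.16 (95% interval -0.30 to -0.01, limma adjusted p = 0.380). The TIMP family inhibitor Timp1 was abundant at 958 ± 23.2 FPKM in FCA and 951 ± 86.0 FPKM with TCDCA (log2 change -0.02, adjusted p = 0.949). Timp3, named after its values were seen, was low, at 1.66 ± 0.20 and 1.35 ± 0.18 FPKM (-0.18, limma adjusted p = 0.440). Whether either inhibitor acts on the 9 enzymes was not tested. Frmd8, which stabilises the iRhom partners of Adam17, was at 22.3 ± 1.13 and 20.2 ± 3.54 FPKM (-0.16, adjusted p = 0.724). Of the relatives, Adam12 was at 97.5 ± 9.89 FPKM in FCA and 109 ± 4.87 FPKM with TCDCA, a log2 change of 0.17 (95% interval 0.03 to 0.31, limma adjusted p = 0.356). Adamts7, the closest relative of Adamts12, was at 11.5 ± 0.93 and 11.1 ± 0.94 FPKM (-0.05, adjusted p = 0.815). Adamts10, named after its values were seen, lay between 9.30 and 9.91 FPKM in FCA and between 8.04 and 9.25 FPKM with TCDCA. Its log2 change was -0.15 (95% interval -0.27 to -0.04, limma adjusted p = 0.339). Of the 11 other ADAMTS proteases with a record, it alone did not overlap. Of all records, 1.90% lay below FCA in all 9 TCDCA libraries. Adamtsl4, an ADAMTS-like protein without a protease domain, was at 15.2 ± 1.59 and 12.5 ± 1.15 FPKM (-0.26, adjusted p = 0.337). None of these genes passed the test.

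Of 10 matrix substrates tested, 1 was higher and 3 were lower at an unadjusted limma p under 0.05 over the 9 TCDCA libraries. By this rule 5.86% of all records were higher and 6.15% lower. The median log2 change was -0.14 for the list and 0.0031 for all records. Thbs1 was the most abundant, at 1814 ± 67.9 FPKM in FCA and 1756 ± 191 FPKM with TCDCA (-0.05, adjusted p = 0.838). Acan, the aggrecan core protein, singled out after its values were seen, lay between 4.89 and 5.79 FPKM in FCA and between 2.74 and 4.58 FPKM in all 9 TCDCA libraries, a log2 change of -0.31 (95% interval -0.56 to -0.07, limma adjusted p = 0.347). COMP, the substrate of Adamts12, was at 1.81 ± 0.15 FPKM in FCA and 1.66 ± 0.26 FPKM with TCDCA (-0.09, adjusted p = 0.730), and Vcan, versican, at 36.9 ± 4.44 and 43.6 ± 8.31 FPKM (0.22, adjusted p = 0.605), both also chosen after their values were seen. Of the 10 substrates, Acan and Bgn (biglycan, 855 to 870 FPKM in FCA and 701 to 829 FPKM with TCDCA, named after its values were seen) were those whose FCA and TCDCA libraries did not overlap, where 1.90% of all records lay below FCA in all 9 TCDCA libraries.

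Of 19 shed membrane proteins tested, 2 were higher and 0 lower at an unadjusted limma p under 0.05 over the 9 TCDCA libraries. By this rule 5.86% of all records were higher and 6.15% lower. The median log2 change of the list was 0.05. App was the most abundant, at 172 ± 4.88 FPKM in FCA and 172 ± 15.0 FPKM with TCDCA (0.0010, adjusted p = 0.996). Vcam1, an adhesion molecule of inflamed synovium that Adam17 sheds, was chosen after its values were seen, and lay between 2.55 and 3.64 FPKM in FCA and between 4.01 and 5.70 FPKM with TCDCA, a log2 change of 0.49 (95% interval 0.29 to 0.70, limma adjusted p = 0.201). This was a larger difference than that of any of the 9 proteases over the 9 TCDCA libraries, and it did not pass the adjustment either. In the other direction, Tnfrsf1a, a TNF receptor also named after its values were seen, lay between 57.9 and 62.0 FPKM in FCA. With TCDCA it lay between 44.9 and 57.4 FPKM, a log2 change of -0.15 (95% interval -0.30 to 0.0033, limma adjusted p = 0.422). Vcam1 and Tnfrsf1a were the genes of this list whose groups did not overlap. Of all records, 0.956% lay above FCA in all 9 TCDCA libraries and 1.90% below.

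**Figure D4:**
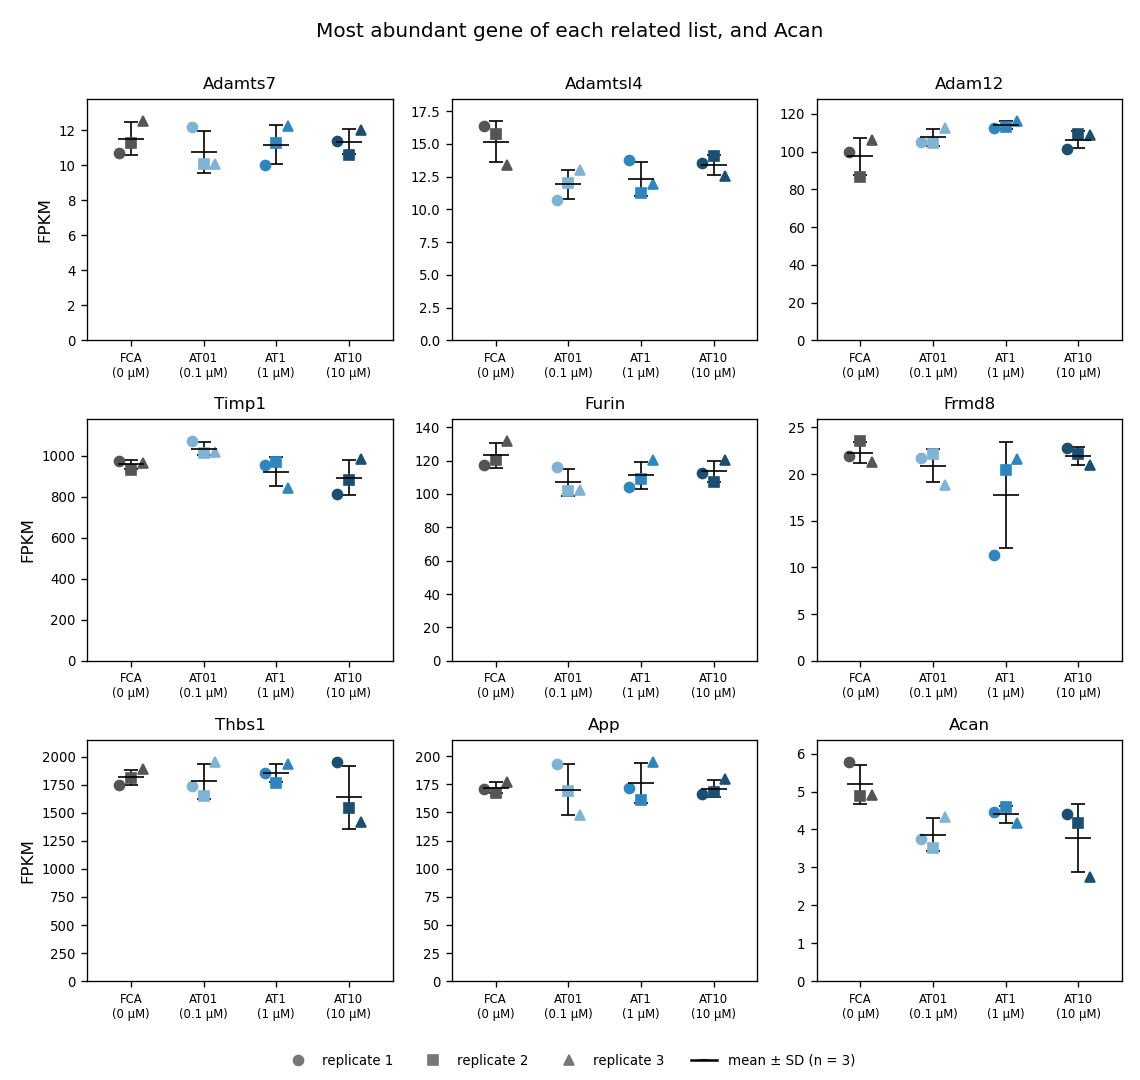
FPKM (y axis of each panel, from 0) of the most abundant gene of each of the 8 lists and of Acan in the 12 libraries by group (x axis, with the TCDCA dose); points are libraries, and bars are the mean ± SD of 3 libraries. Acan lies below FCA in all 9 TCDCA libraries (2.74 to 4.58 against 4.89 to 5.79 FPKM), and Timp1 and App overlap between the groups.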

How the data were processed

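Poly(A) RNA of 12 FLS libraries, 3 per group, was sequenced as paired ends. The authors trimmed the reads, aligned them with HISAT2 2.0.4, assembled and quantified transcripts with StringTie 1.2.4 and Ballgown 2.6.0, and deposited a table of FPKM, rounded to 2 decimals, with 22442 gene records, 20450 of them named. The genome build and annotation are not given in the sources used here. Read counts were not used here, and the depth of a single value is therefore unknown. Transcripts were joined to reads by assembly, so 1 gene can be split over several records, as for 4 of the 9 genes, which had 13 records in all.

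Groups were taken from the labels. Values were transformed as log2(FPKM + 1), a pseudocount of 1, and records that averaged 1 FPKM or more, 11611 in all, were fitted with limma 3.58.1 in R 4.3.3 (lmFit, eBayes with a trend), 2 groups at a time, with Benjamini-Hochberg adjustment over all of them. Further fits compared the 9 TCDCA libraries with FCA and took the slope over the dose order coded from 0 to 3. Beside these stood an exact two-sided permutation test, which can go no lower than 0.1 with 3 libraries in each group and 0.00909 with 9 and 3, so at a single dose it cannot reach 0.05. The script was tested on simulated data. Tables were handled in Python 3.11.15 with pandas 2.3.3 and SciPy 1.17.1, and figures drawn with Matplotlib 3.10.9.

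The 9 genes and the lists were chosen with earlier results of these data known. The text names every one of the 9 genes in each comparison with FCA and those under an unadjusted p of 0.05 between doses, and of the 8 lists of related genes any that was called and the most abundant of each; other genes are named as chosen after their values were seen. The alternatives were to leave out each library in turn, to add the replicate number as a block, to fit all 12 libraries at once, to sum the records of a name, to scale by median of ratios, to use a Ballgown-style F test, to set the pseudocount to 0.1, and to drop the filter or raise it to 10 FPKM. Leaving out replicate 2 of every group and taking the Adamts9 record with the Ensembl transcript were chosen after seeing the data.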

Additional observations from a re-analysis of the deposited data

Results flagged for a closer look

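Adamts2 had 1 library apart from the rest among the 9 TCDCA libraries: AT10 replicate 3 read 5.12 FPKM and the other 8 between 6.31 and 6.86 FPKM, a gap of 0.710 of the whole range on the log2(FPKM + 1) scale, where the 95% critical value of Dixon's test for 9 values is 0.493. The other 8 genes had ratios from 0.138 to 0.359. Chance passes this limit in about 1 of 20 groups, and 9 were looked at.

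The Adamts9 record not taken, MSTRG.12828, lay above the highest FCA library (1.10 FPKM) in all libraries of 2 doses, with a lowest value of 1.31 FPKM in AT01 and of 1.30 FPKM in AT1. Its log2 change was 0.23 in AT01 (limma adjusted p = 0.720) and 0.31 in AT1 (limma adjusted p = 0.428), so neither passed the test.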

How the results depend on the processing

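Under every alternative run, 0 of the 9 genes were called by either criterion in any comparison. The log2 change of Adamts12 over the 9 TCDCA libraries stayed between 0.25 and 0.33 with each library left out and between 0.27 and 0.36 under the other alternatives, with limma adjusted p from 0.149 to 0.883 over all of these. The sign of small changes did vary. With each library left out in turn, the log2 change of Adamts1 ran from -0.23 to 0.63 in AT10, from -0.0013 to 0.70 in AT1, from -0.50 to 0.37 in AT01 and from -0.24 to 0.46 over the 9 TCDCA libraries. Likewise, that of Adam9 ran from -0.041 to 0.034 in AT10, Adamts2 from -0.053 to 0.017 in AT1, Adam17 from -0.064 to 0.41 in AT01, Adamts5 from -0.075 to 0.043 in AT01 and from -0.074 to 0.032 over the 9 TCDCA libraries, and Adamts4 from -0.39 to 0.0041 in AT01. The sign turned without FCA replicate 2 (Adamts1 in AT10, in AT1 and over the 9 libraries, Adamts2, Adam17), FCA replicate 1 (Adamts1 in AT01, Adamts2), FCA replicate 3 (Adamts1 in AT01, Adam9, Adamts5 in both), AT10 replicate 3 (Adamts1 in AT10, Adamts5 over the 9 libraries), AT1 replicate 3 (Adamts2), AT01 replicate 1 (Adamts4), AT01 replicate 2 (Adamts1) or AT01 replicate 3 (Adam17, Adamts5). The Ballgown-style F test, which carries a library term, gave Adamts1 -0.039 in AT10, -0.16 in AT1 and -0.024 over the 9 TCDCA libraries, Adamts2 0.072 in AT1 and Adamts5 -0.036 in AT1. With FPKM summed by gene name, Adamts9 was at 0.12 in AT1, Adam10 at -0.17 in AT01 and Adamts5 at 0.0088 over the 9 TCDCA libraries, since other records of these names entered the sums. Without the replicate 2 libraries, Adam17 was at -0.18 in AT1 and Adam10 at -0.0059 in AT01. With the Ensembl record, Adamts9 was at 0.31 for AT1 against FCA, -0.30 for AT10 against AT1 and 0.083 for AT1 against AT01. Where no construction is named, the cause was not tested.

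The count of related genes called by the study's criterion rose from 0 to 1 by the F test in AT1 against FCA. It rose to 1 for AT10 against AT1 without the replicate 2 libraries. With each library left out it ran from 0 to 1 in AT1 against FCA, from 0 to 2 in AT01 against FCA, from 0 to 1 for AT10 against AT1, from 0 to 3 for AT10 against AT01 and from 0 to 1 for AT1 against AT01. The libraries behind these counts were FCA replicate 3, AT01 replicate 1, and AT1 replicates 2 and 3. Among these settings, a limma adjusted p under 0.05 was reached by 1 related gene in AT01 against FCA without AT01 replicate 1. The same held for 1 in AT10 against AT1 without AT1 replicate 3. The filter of 10 FPKM removes Adamts2, Adamts4, Adamts9 and Adamts12, for which it gave no value.

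The correlations between same-numbered libraries, of deviations from the group means, lay between -0.105 and 0.0942 over 18 pairs. Those between differently numbered libraries lay between -0.154 and 0.149 over 36 pairs. Whether a replicate number marks a shared culture or day was not tested. With the number as a replicate block, 0 of 9 genes were called, the log2 change of Adamts12 over the 9 TCDCA libraries was 0.29 (limma adjusted p = 0.153), and no call changed. With 3 libraries per group and no read counts behind single values, a change of the size of that of Adamts12 did not pass. The wide intervals of Adamts1 and Adam17 do not show that these genes stayed level.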

Other observations

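Among other records of the 9 names, Adamts1 had MSTRG.3835 at up to 1.39 FPKM, and Adamts5 had MSTRG.3839, listed at 0 in all libraries but AT1 replicate 3 (3.02 FPKM). These 2 records did not reach a mean of 1 FPKM and were not tested. The Adam10 record MSTRG.17158 fell into a low level of 4 libraries at 0 and a high level of 8, with a gap of 2.08 on the log2(FPKM + 1) scale.

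AT10 replicate 3 was the lowest of the 12 libraries for Adamts2, Adamts4 and Adamts5 as well as for Acan (2.74 FPKM) and Col1a1 (571 FPKM), both named after their values were seen, and it held the highest Adamts1 value (229 FPKM).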
